A study of Mus musculus with 14 samples.

Results

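MMERVK10C is an endogenous retrovirus of the mouse, of the ERVK class, and repeat annotation splits it into an internal part, MMERVK10C-int, and a long terminal repeat (LTR), RLTR10C. Its copies were taken by these subfamily names alone, with no measured value used: 3230 MMERVK10C-int and 1779 RLTR10C copies, 5009 of the 3725827 copies of transposable elements (TE) in the deposited tables, together with the count of each subfamily as a whole. The tables of both stages listed the same copies, so no copy had to be given a level of 0 for being absent.

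The study sequenced polyadenylated RNA of germ cells sorted from testes of Dnmt3C KO/KO mice (KO), homozygous in the whole animal for a knockout of the DNA methyltransferase DNMT3C, and of wild type littermates (WT). Spermatogonia (Spg), the germ cells before meiosis, came from mice 14 days after birth and were sorted as Ep-CAM-positive, beta-2-microglobulin-negative cells. Spermatocytes (Spc), the germ cells in meiosis, came from mice older than 20 days and were sorted by Hoechst DNA staining. Each genotype had 3 libraries from spermatogonia and 4 from spermatocytes, and a further spermatogonia library per genotype, set aside in the study for poor RNA, was not analysed here.

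In a complete retroviral copy, or provirus, the internal part carries the viral genes gag and pol and lies between 2 LTRs. The first LTR holds the promoter and the last LTR the signal for polyadenylation, while recombination between the LTRs of a provirus leaves a lone LTR behind. DNMT3C adds DNA methylation to the promoters of evolutionarily young retrotransposons in male germ cells before birth, and young ERVK elements are among its known targets.

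Total counts per library ran from 40555726 to 53323651, of which 825841 to 3833925 reads were assigned to single TE copies. Dnmt3c mRNA itself was low in all 14 libraries (11 to 116 counts) and its level was not called different (log2 fold change 0.10 ± 0.38, SE, adjusted p = 1 in spermatogonia and 0.77 ± 0.42, adjusted p = 0.124 in spermatocytes, edgeR quasi-likelihood test), so it did not check the genotype labels. Summed levels of 7 spermatogonia markers, in CPM (counts scaled to 1000000 per library), were 1091 to 1716 over the 6 spermatogonia libraries and 30.16 to 1102 over the 8 spermatocyte libraries, and 6 spermatocyte markers summed to 587 to 1493 and 1057 to 5159. Within spermatogonia the spermatocyte markers were at 587 to 948 CPM in KO and 923.5 to 1493 in WT, and Piwil1 among them at 10.8 to 13.2 CPM in KO and 42.3 to 431.1 in WT, and their part in the results of that stage was not tested. Marker sums of KO and WT spermatocytes did not overlap for 6 of the 7 lists: the 5 spermatid markers summed to 0.14 to 6.31 CPM in KO and 55.4 to 1396 in WT, the spermatocyte markers to 1057 to 2066 and 3949 to 5159, the spermatogonia markers to 421.6 to 1102 and 30.16 to 263, 5 Leydig markers to 53.35 to 318.1 and 13.88 to 29.51, 3 peritubular markers to 14.91 to 142.6 and 2.75 to 8.50, and 3 macrophage markers to 12.03 to 61.1 and 1.84 to 3.35. The 5 Sertoli markers overlapped (235.8 to 829.2 and 104.8 to 416.1). Not all spermatocyte markers followed their sum. Sycp1 (406.7 to 866.4 CPM in KO and 435.7 to 903.2 in WT) and Sycp3 (299.8 to 701.4 and 442.5 to 717) overlapped between KO and WT spermatocytes, so the gap of that sum lay in its other markers. KO replicate 2 of the spermatocytes held the most spermatogonia marker RNA (1102 CPM) and the least spermatocyte marker RNA (1057 CPM) of its group, and WT replicate 3 held more spermatogonia (263), Sertoli (416.1) and spermatid (1396) marker RNA than the other WT spermatocyte libraries. In such bulk samples fewer cells of a type and less RNA per cell cannot be told apart. Replicates 1 and 4 of the spermatocytes were far more alike within each genotype than any other pair (chi-square per feature 11.6 in KO and 14.9 in WT, against 129 to 286 for the other spermatocyte pairs), yet above sampling noise. They were counted as separate samples, although 2 libraries of 1 sample can also differ by more than sampling noise. For MMERVK10C-int and RLTR10C, as subfamilies and as single copies, results with the pair taken as 1 library are given where they change a call. Calls of other subfamilies and of genes in spermatocytes were not checked in this way.

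Most members were fragments. The median length was 320 bp for MMERVK10C-int, up to 7676 bp with 100 copies of at least 5000 bp, and 427 bp for RLTR10C. Rows on the same strand at most 500 bp apart were joined, which gave 2285 loci: 166 full proviruses (RLTR10C on both sides and at least 5000 bp of MMERVK10C-int between them), 168 partial loci with RLTR10C, 801 loci of MMERVK10C-int without RLTR10C, and 1150 loci of RLTR10C alone. By GENCODE M21 on GRCm38, 83.7% of MMERVK10C-int copies were intergenic, 12.9% intronic and 3.47% overlapped an exon, and the shares for RLTR10C were 74.1%, 22.4% and 3.49%. Intronic copies lay mostly antisense to their host gene, 264 of 415 MMERVK10C-int and 280 of 399 RLTR10C copies. No read was assigned in any library to 1430 MMERVK10C-int and 844 RLTR10C copies.

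The sequences shown are RefSeq promoter windows on GRCm38.p6, from 250 bases before to 50 after the start of a gene, that lie wholly inside a member on the same strand: 8 windows in RLTR10C and 2 in MMERVK10C-int. The first comes from a copy at the top of the results, MMERVK10C-int_dup532 of a provirus on chromosome 3, and is printed without marks because it held none of the motifs searched. The other 3 show the RLTR10C repeat in the only such copy whose gene was tested in both stages, and in the copies with the fewest and the most CpG sites. Capitals mark CCAAT, the octamer ATGCAAAT and the polyadenylation signal AATAAA, which overlaps the last CCAAT.
Gm40100 window, in MMERVK10C-int_dup532, chr3:96508731-96509030 (- strand): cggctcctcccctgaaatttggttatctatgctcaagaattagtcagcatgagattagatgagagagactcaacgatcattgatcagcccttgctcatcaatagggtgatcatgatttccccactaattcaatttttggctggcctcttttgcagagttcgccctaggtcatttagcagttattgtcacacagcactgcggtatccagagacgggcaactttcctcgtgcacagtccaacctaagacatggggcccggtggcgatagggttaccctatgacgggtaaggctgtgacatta
2310047D07Rik window, in RLTR10C_dup606, chr5:149231058-149231357 (+ strand): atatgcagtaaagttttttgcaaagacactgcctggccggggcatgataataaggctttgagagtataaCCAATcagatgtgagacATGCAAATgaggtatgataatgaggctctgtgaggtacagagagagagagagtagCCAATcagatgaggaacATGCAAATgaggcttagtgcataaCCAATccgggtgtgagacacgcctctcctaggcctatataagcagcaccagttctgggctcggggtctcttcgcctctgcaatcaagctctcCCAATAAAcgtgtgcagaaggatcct
Gm31612 window, in RLTR10C_dup515, chr5:17931940-17932239 (+ strand): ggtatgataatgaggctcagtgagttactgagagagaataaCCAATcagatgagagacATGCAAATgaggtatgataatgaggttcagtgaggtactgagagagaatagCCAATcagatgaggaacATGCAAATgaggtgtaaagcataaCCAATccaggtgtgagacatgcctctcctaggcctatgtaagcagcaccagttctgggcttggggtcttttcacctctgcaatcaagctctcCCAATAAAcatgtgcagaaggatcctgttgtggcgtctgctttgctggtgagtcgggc
Gm33309 window, in RLTR10C_dup330, chr3:101737490-101737789 (- strand): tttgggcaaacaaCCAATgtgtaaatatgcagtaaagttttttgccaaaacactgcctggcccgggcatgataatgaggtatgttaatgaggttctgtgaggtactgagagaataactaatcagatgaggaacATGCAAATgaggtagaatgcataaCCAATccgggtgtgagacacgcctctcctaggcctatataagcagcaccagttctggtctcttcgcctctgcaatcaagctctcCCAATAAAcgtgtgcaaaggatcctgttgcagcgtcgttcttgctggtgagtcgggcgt

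Each window was searched on both strands. AATAAA was present in 8 of 8 RLTR10C windows and in 19.63% of all 32851 RefSeq promoter windows of this length, CCAAT in 8 of 8 and 37.41%, and the octamer in 6 of 8 and 1.74%. CCAAT and the octamer were not among the motifs planned for the search and were added to it. The 8 windows are copies of the same repeat, so their counts are not independent and no test was made. TATAAA was found in 1 of 8 (13.62% of all windows), while the NRF1 palindrome CGCATGCG (1.87% of all), the NRF1 core TGCGCA (7.76%) and the CRE TGACGTCA (1.79%) were not among the letters of these 8 windows. The RLTR10C windows held a median of 6.5 CpG sites (2 to 9), against 7 (0 to 67) over all windows, and were 87.8% to 98.1% identical in pairwise alignments. These 8 copies were lone LTRs with at most 9 reads in any group of libraries, so they show the repeat and not its most transcribed copies.

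RLTR10C rose in KO cells of both stages and MMERVK10C-int in KO spermatocytes, while the higher level of MMERVK10C-int in KO spermatogonia lay at the edge of the threshold. In both stages the KO and WT libraries did not overlap for either part. In spermatogonia MMERVK10C-int stood at 2381, 3500 and 2022 CPM in KO replicates 1 to 3 and at 605.5, 431.4 and 526.4 CPM in WT. In spermatocytes it stood at 4076, 2348, 4264 and 4514 CPM in KO replicates 1 to 4 and at 83.59, 89.85, 430.7 and 79.31 CPM in WT. KO replicate 2 was the lowest KO spermatocyte library and WT replicate 3 the highest WT one, close to the WT level of spermatogonia. Spermatogonia marker RNA was also higher in all KO than in all WT spermatocyte libraries (421.6 to 1102 against 30.16 to 263 CPM), and its part in the spermatocyte results was not tested.

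RLTR10C was the less abundant part. In spermatogonia it stood at 159.3, 270.5 and 197.7 CPM in KO and at 23.34, 22.13 and 29.82 CPM in WT. In spermatocytes it stood at 112.4, 206.3, 174.8 and 107.5 CPM in KO and at 10.28, 10.85, 21.77 and 7.65 CPM in WT. Here KO replicate 2 was the highest KO spermatocyte library, the opposite of its rank for MMERVK10C-int.

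**Figure D1:**
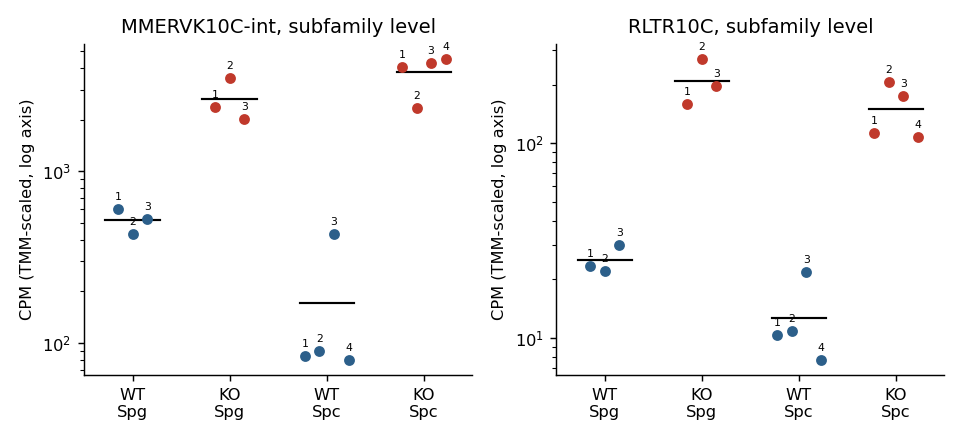
Level of MMERVK10C-int (left) and RLTR10C (right) as whole subfamilies in each library, in CPM on a log axis, with points numbered by replicate and bars at the group mean. KO libraries (red) lie above WT libraries (blue) in both stages, and WT spermatocyte replicate 3 stands at 430.7 CPM of MMERVK10C-int against 79.31 to 89.85 in the other 3.

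The log2 fold change of RLTR10C was 3.03 ± 0.22 (SE) in spermatogonia (edgeR quasi-likelihood test, adjusted p = 0.0026) and 3.60 ± 0.38 in spermatocytes (adjusted p = 3.36e-05). That of MMERVK10C-int was 2.30 ± 0.23 in spermatogonia, where the adjusted p of 0.0101 missed the threshold of 0.01, and 4.52 ± 0.63 in spermatocytes (adjusted p = 0.000174). With the replicate number as a block the value in spermatogonia was 2.27 and passed (adjusted p = 0.00453), and so it did with 5 of the 6 libraries as the reference of the TMM scaling factors. With replicates 1 and 4 of the spermatocytes summed to 1 library per genotype, both calls of that stage held (3.59, adjusted p = 0.000319 for RLTR10C and 4.23, adjusted p = 0.00151 for MMERVK10C-int). The call of RLTR10C in spermatogonia was lost without KO replicate 3 (3.07, adjusted p = 0.0339) or WT replicate 1 (2.97, adjusted p = 0.0115). At this threshold 0.760% of the TE subfamilies were called higher in KO spermatogonia and 11.7% in KO spermatocytes.

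The rise was not called different between the stages for either part, a call that the replicate block and 1 library turned for MMERVK10C-int. The log2 difference of the genotype effect, spermatocytes minus spermatogonia, was 2.14 ± 0.73 for MMERVK10C-int (edgeR, adjusted p = 0.028) and 0.51 ± 0.48 for RLTR10C (adjusted p = 0.4), where 1.64% of subfamilies were called higher. With the replicate number as a block in both stages the difference of MMERVK10C-int was 2.58 and passed (adjusted p = 0.00982). The number was taken as a pairing in spermatogonia alone, and no label states a pairing. Without WT replicate 3 of the spermatocytes the difference of MMERVK10C-int was 3.14 (adjusted p = 2.46e-05). Without that library and KO replicate 2, chosen after the data were seen, that of MMERVK10C-int was 3.32 (adjusted p = 1.53e-05) and that of RLTR10C 0.71 (adjusted p = 0.112). Between stages within KO neither part was called (0.53 ± 0.51, adjusted p = 0.55, and -0.48 ± 0.34, adjusted p = 0.398), nor within WT (-1.61 ± 0.51, adjusted p = 0.0124, and -0.99 ± 0.34, adjusted p = 0.0191), with 1.43% and 25.5% of subfamilies called in either direction. The WT calls rested on which library served as the TMM reference: edgeR chose KO spermatocyte replicate 3, and over all 14 choices MMERVK10C-int ran from -1.86 to -1.61 and passed with 12, and RLTR10C ran from -1.24 to -0.99 and passed with 7. Neither the difference between stages of the genotype effect nor that within KO was called with any of the 14.

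Related elements split in the same comparison. The genotype effect was larger in spermatocytes for RLTR10B, an LTR that also flanks MMERVK10C-int copies (log2 difference 2.56 ± 0.63, edgeR adjusted p = 0.00594), for its relative RLTR10B2 (3.28 ± 0.87, adjusted p = 0.00837), and for the internal part RLTR10-int (1.56 ± 0.36, adjusted p = 0.00439). It was 0.01 ± 0.43 for IAPEz-int, the internal part of the young ERVK family IAP (adjusted p = 0.996).

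In KO spermatogonia the reads of the family lay mostly in full proviruses. Their share of the family's signal (TPM times length over all members) was 73.57%, 76.43% and 73.74% in KO and 29.62%, 32.16% and 39.95% in WT. The difference was 40.67 percentage points (74.58% ± 1.61 against 33.91% ± 5.38, SD, n = 3 and 3, two-sided exact permutation test, p = 0.1, the smallest this design allows). In spermatocytes the share was 17.85%, 47.72%, 29.18% and 16.68% in KO and 32.7%, 29.44%, 15.19% and 31.28% in WT, and the groups overlapped. The difference there was 0.70 points (27.86% ± 14.39 against 27.15% ± 8.09, SD, n = 4 and 4, exact permutation p = 0.857), and its sign turned without KO replicate 2 (-5.92 points), without WT replicate 3 (-3.28) or without both (-9.91). Spermatogonia marker RNA of the same libraries was at 429.9, 1102, 1061 and 421.6 CPM in KO and at 35.46, 151.6, 263 and 30.16 CPM in WT. The library with the most of it had the highest share in KO (replicate 2) and the lowest in WT (replicate 3). The part of that RNA in the share was not tested.

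The share of RLTR10C among MMERVK10C-int and RLTR10C counts was higher in KO than in WT spermatogonia and lower in KO than in WT spermatocytes, and neither difference passed a test. It made up 6.27%, 7.17% and 8.91% in KO spermatogonia and 3.71%, 4.88% and 5.36% in WT (7.45% ± 1.34 against 4.65% ± 0.85, SD, n = 3 and 3, exact permutation p = 0.1, the smallest possible). In spermatocytes it made up 2.68%, 8.08%, 3.94% and 2.33% in KO and 10.95%, 10.78%, 4.81% and 8.80% in WT (4.26% ± 2.64 against 8.83% ± 2.85, SD, n = 4 and 4, exact permutation p = 0.0571). The spermatogonia groups did not overlap, while KO replicate 2 and WT replicate 3 of the spermatocytes each lay inside the range of the other genotype.

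**Figure D2:**
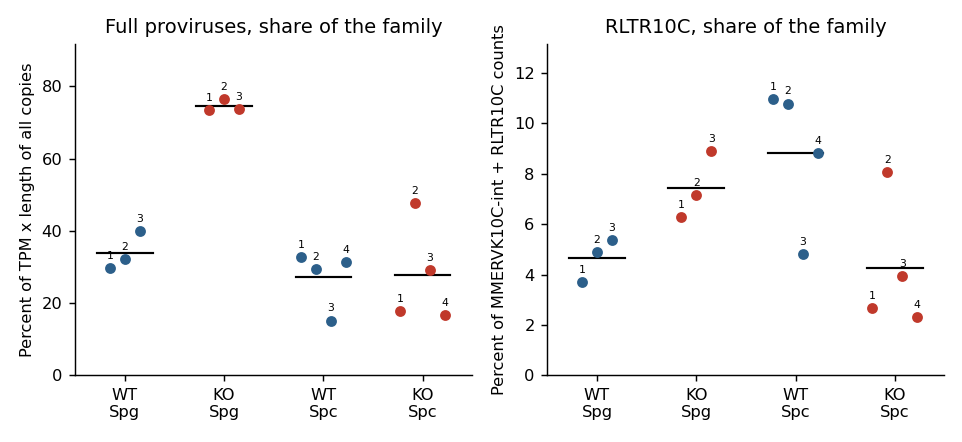
Share of the family held by full proviruses (left, percent of TPM times length of all members) and by RLTR10C (right, percent of MMERVK10C-int plus RLTR10C counts) in each library, with points numbered by replicate and bars at the group mean. The 3 KO spermatogonia libraries sit at 73.57% to 76.43% on the left, above all other libraries, and spermatocyte KO replicate 2 at 47.72% is the next highest.

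Summed levels of internal copies differed by the LTR that lay beside them. Of the MMERVK10C-int copies, 1350 shared a locus with RLTR10C, 440 with RLTR10B or its relative RLTR10B2, 38 with both, 1288 with another LTR and 114 with none. This split was made after the values were seen, so it is a description with no test, and all copies entered the sums whatever their level.

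Copies beside RLTR10C summed to 1781, 2733 and 1516 CPM in KO spermatogonia and to 194.1, 152.7 and 230.3 CPM in WT. In spermatocytes they summed to 708.0, 1124, 1222 and 734.9 CPM in KO and to 30.68, 28.69, 75.74 and 30.30 CPM in WT. The ratio of the KO and WT means was 10.4 in spermatogonia and 22.9 in spermatocytes, and KO spermatocytes lay below all KO spermatogonia libraries.

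Copies beside RLTR10B summed to 473.2, 560.9 and 358.6 CPM in KO spermatogonia and to 301.8, 155.8 and 139.6 CPM in WT. In spermatocytes they summed to 3278, 1081, 2895 and 3693 CPM in KO and to 22.78, 32.70, 302.8 and 21.29 CPM in WT. The ratio of means was 2.33 in spermatogonia and 28.8 in spermatocytes (107 without WT replicate 3), and KO spermatocytes lay above all KO spermatogonia libraries. Copies beside other LTRs had ratios of 1.21 and 3.68, and those without an LTR 1.15 and 1.98.

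**Figure D3:**
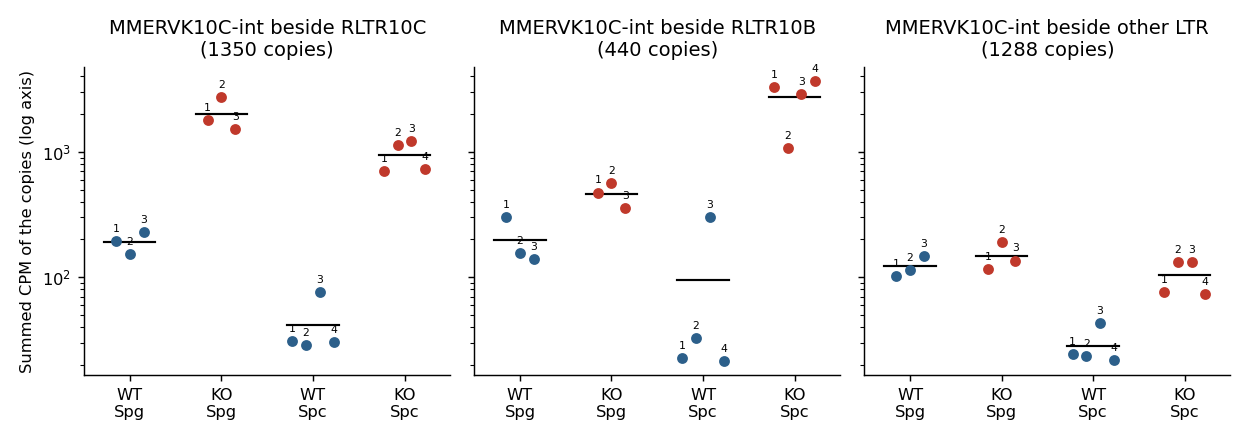
Summed level of MMERVK10C-int copies beside RLTR10C, beside RLTR10B or RLTR10B2, and beside other LTRs in each library, in CPM on a shared log axis, with points numbered by replicate and bars at the group mean. From KO spermatogonia to KO spermatocytes the mean goes from 2010 to 947.2 CPM beside RLTR10C and from 464.2 to 2737 CPM beside RLTR10B.

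The same levels can be counted by copy. Only copies with a mean of at least 1 CPM in KO cells of either stage were counted, 146 of the 440 beside RLTR10B and 165 of the 1350 beside RLTR10C, and since that minimum and the split both use these levels, the counts restate the sums and lend them no support. Of the 146 beside RLTR10B, 145 were higher in KO spermatocytes than in KO spermatogonia, by a median ratio of 6.34. Of the 165 beside RLTR10C, 144 were higher in KO spermatogonia, with a median ratio of spermatocytes to spermatogonia of 0.441. Copies beside other LTRs went the same way as those beside RLTR10C, with 9 of 10 higher in KO spermatogonia and a median ratio of 0.729. Without KO replicate 2 of the spermatocytes the counts beside RLTR10B and RLTR10C were 149 of 149 and 146 of 165, and with library totals in place of TMM factors they were 145 of 148 and 155 of 177. Near-identical copies share multiply mapping reads, so single copies are not independent of each other.

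**Figure D4:**
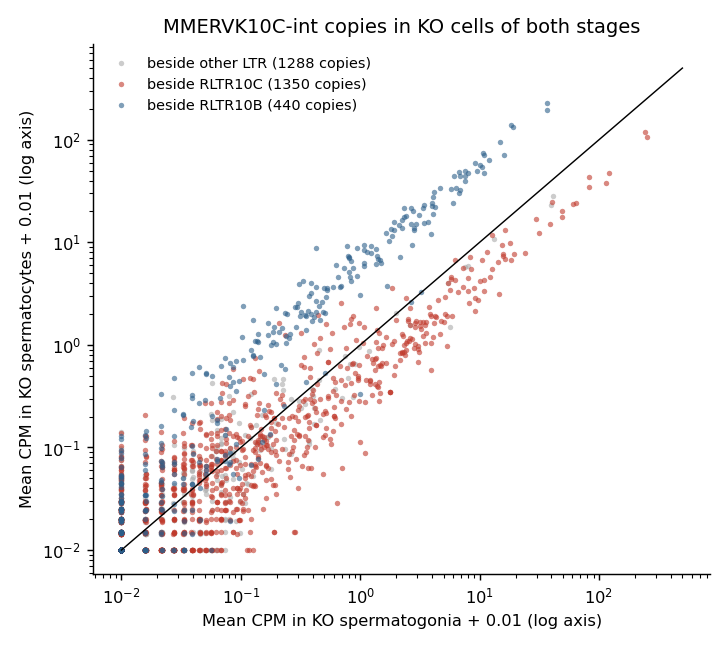
Each MMERVK10C-int copy beside another LTR (grey), RLTR10C (red) or RLTR10B or RLTR10B2 (blue), by its mean CPM in KO spermatogonia (x) and KO spermatocytes (y), both plus 0.01 on log axes, with a line of equal levels. Blue points lie above the line (145 of the 146 at 1 CPM or more) and red points mostly below it (144 of 165).

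Of the 50 MMERVK10C-int copies with the most reads in KO spermatogonia, 34 lay beside RLTR10C and 13 beside RLTR10B, 33 were in a full provirus, and their median length was 2799 bp. Of the 50 in KO spermatocytes, 10 lay beside RLTR10C and 38 beside RLTR10B, 10 were in a full provirus, and their median length was 958.5 bp. The 2 lists shared 25 copies, 50% of each. RLTR10C copies shared 41 of their leading 50, 82% of each. The 100 internal copies of at least 5000 bp held 55.4% to 57.5% of MMERVK10C-int reads in KO spermatogonia and 11.3% to 32.9% in KO spermatocytes.

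Copies were tested within each stage with limma on log2(TPM + 0.1), where TPM is relative to all TE copies of a library, and 710 MMERVK10C-int and 162 RLTR10C copies in spermatogonia and 638 and 124 in spermatocytes passed the filter of a mean of 0.5 TPM. A copy high in KO alone passes that filter through its KO libraries, so the counts describe what was called and say nothing for the copies left out. In spermatogonia 14 MMERVK10C-int and 2 RLTR10C copies were called higher, 16 of the 22 TE copies called (0.00872% of all tested), and 0 lower (0.000396% of all tested). Of the tested MMERVK10C-int and RLTR10C copies, 250 and 44 had an unadjusted p under 0.05 in either direction, against 13394 of all 252388 TE copies tested. Recovered reads tested with edgeR gave 1 MMERVK10C-int copy called lower (0.174% of all TE copies tested). In spermatocytes 288 and 34 were called higher (7.17% of all tested) and 7 and 3 lower (4.06% of all tested). The higher calls fell to 156 and 18 with the replicate block (1.95% of all tested), to 102 and 14 with replicates 1 and 4 averaged (2.50%), and to 176 and 24 without KO replicate 3 (5.52%). MMERVK10C-int calls were also 191 without KO replicate 1 (5.80% of all tested), and RLTR10C calls 22 without WT replicate 1 (3.90%) and 21 without WT replicate 4 (4.00%). The median log2 difference of the tested copies was 1.96 and 2.32 in spermatogonia, against 0.03 for all TE copies, and 3.87 and 3.17 in spermatocytes, against 1.39. These medians moved with the filter and the pseudocount. At a mean of 0.1 TPM they were 1.40 and 1.26 against 0.13 in spermatogonia and 2.17 and 1.21 against 0.98 in spermatocytes, where RLTR10C lay close to all TE copies. At a pseudocount of 1 they were 1.05 and 0.98 against 0.01 and 1.90 and 1.17 against 0.61. The number called in spermatogonia rested on the processing: recovered whole reads tested with edgeR gave 175 and 27 (1.42% of all TE copies called higher), a pseudocount of 1 gave 48 and 8 (0.0638%), and the replicate block 1 and 1 (0.000792%). Leaving out 1 library gave 0 to 8 and 0 to 3 (0% to 0.0056% of all TE copies). The copies called lower in spermatocytes became 2 and 1 with the replicate block (2.02% of all TE copies called lower) and 0 and 1 with replicates 1 and 4 averaged (2.10%, limma). In that averaged fit 426 and 70 copies had an unadjusted p under 0.05 in either direction, against 65451 of all 241893 TE copies tested.

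All 16 copies called in spermatogonia were parts of 9 full proviruses, and all 16 were also called higher in spermatocytes. With the replicate block, a pairing that no label states, only RLTR10C_dup837 (limma, adjusted p = 0.000334) and MMERVK10C-int_dup103 (adjusted p = 0.00292) stayed called in spermatogonia. The other 14 were called in the unpaired fit and not with the block. The block also leaves fewer degrees of freedom, and the part of that in the lost calls was not tested. Their log2 differences in spermatogonia ran from 2.60 to 5.19. In spermatocytes the 322 called copies lay in 143 loci, and 132 of them were in full proviruses.

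A tandem provirus on chromosome 8 held the leading RLTR10C copy of both KO stages and the leading internal copy of KO spermatogonia. It spanned chr8:47465631-47479412 (GRCm38, + strand, intergenic) in 15 rows, with 3 RLTR10C copies, and held 15.13%, 15.71% and 16.72% of all member reads in KO spermatogonia and 4.49% to 4.92% in WT. Its inner LTR, RLTR10C_dup837 (chr8:47472306-47472737), was at 1330, 1230 and 1460 TPM in KO spermatogonia and at 72.9, 43.5 and 66.3 TPM in WT. In spermatocytes it was at 475, 1060, 652 and 454 TPM in KO and at 8.59, 13.3, 12.7 and 0 TPM in WT. Every KO library lay above every WT library of its stage. The log2 difference was 4.49 ± 0.15 in spermatogonia (limma, adjusted p = 4.6e-10) and 7.48 ± 1.35 in spermatocytes (adjusted p = 0.0031). Over the libraries of a group this LTR took 42.7% of all RLTR10C reads in KO spermatogonia, 37.3% in KO spermatocytes and 15.5% in WT spermatogonia. The 2 outer LTRs of the locus, also 432 bp long, had 0 to 9 and 0 to 73 reads, and how reads were shared among such like copies was not tested. The internal copy MMERVK10C-int_dup1577 (chr8:47473897-47478980) was at 389, 323 and 264 TPM in KO spermatogonia and at 34.5, 8.56 and 19.6 TPM in WT (log2 difference 4.16 ± 0.38, limma adjusted p = 0.00042, or 0.148 with the replicate block).

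The chromosome 3 provirus at chr3:96508210-96515310 (- strand, intergenic) ranked next and contains the first sequence shown above. Its internal copy MMERVK10C-int_dup532 (chr3:96508641-96513739) was at 380, 297 and 267 TPM in KO spermatogonia and at 65.9, 23.9 and 42.9 TPM in WT. In spermatocytes it was at 96.6, 159, 113 and 109 TPM in KO and at 0.04, 2.25, 4.98 and 0.28 TPM in WT. The groups were apart in both stages, with log2 differences of 2.93 ± 0.29 (limma, adjusted p = 0.000761, or 0.125 with the replicate block) and 7.04 ± 1.03 (adjusted p = 0.00107). Its LTR RLTR10C_dup326 (chr3:96508210-96508640) was at 389, 306 and 367 TPM in KO spermatogonia against 87.6, 25.6 and 53.7 TPM in WT (log2 difference 2.83 ± 0.31, limma adjusted p = 0.00149, or 0.212 with the block).

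A further 3 internal copies of full proviruses were among the leading 5 in KO spermatogonia. MMERVK10C-int_dup2302 (chr11:121396662-121401691, - strand, intergenic) was at 190, 152 and 136 TPM in KO and 17.1, 6 and 12.1 TPM in WT (log2 difference 3.86 ± 0.42, limma adjusted p = 0.00149). MMERVK10C-int_dup2860 (chr16:4343642-4351222, + strand) lies antisense in an intron of Adcy9, an adenylyl cyclase gene, and was at 120, 99.9 and 72.6 TPM against 4.94, 2.88 and 5.56 TPM (4.44 ± 0.56, limma adjusted p = 0.00658). MMERVK10C-int_dup983 (chr5:99907476-99912503, - strand) lies antisense in an intron of Vamp9 and was at 142, 96.4 and 87.6 TPM against 5.08, 6.08 and 4.49 TPM (4.33 ± 0.50, limma adjusted p = 0.00254). In each of these copies all KO libraries of spermatogonia stood far above all WT libraries, and with the replicate block none of the 3 was called (limma, adjusted p = 0.212, 0.363 and 0.256 in the same order).

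Of the 5 MMERVK10C-int copies with the most reads in KO spermatocytes, the first 4 lay beside RLTR10B or RLTR10B2, and the fifth was MMERVK10C-int_dup532 of the chromosome 3 provirus, beside RLTR10C. MMERVK10C-int_dup141 (chr1:138803578-138804488, - strand, intergenic) was at 1580, 558, 1130 and 1780 TPM in KO spermatocytes and at 4.07, 6.90, 125 and 8.70 TPM in WT. In spermatogonia it was at 296, 232 and 266 TPM in KO and at 225, 54.7 and 58.6 TPM in WT. It was called in spermatocytes (log2 difference 6.43 ± 0.90, limma adjusted p = 0.000868) and not in spermatogonia (1.55 ± 0.37, adjusted p = 0.302), a difference between stages that was not tested for single copies because each table was scaled on its own. MMERVK10C-int_dup3173 (chr19:8634546-8635536, - strand, intergenic) behaved alike, at 1240, 479, 880 and 1410 TPM in KO spermatocytes against 6.24, 8.95, 169 and 15.3 TPM in WT. The groups of spermatocytes did not overlap for either copy, KO replicate 2 was the lowest KO library and WT replicate 3 by far the highest WT library. MMERVK10C-int_dup185 on chromosome 1 and MMERVK10C-int_dup2483 on chromosome 12 showed the same order, with log2 differences of 5.23 ± 0.92 (limma, adjusted p = 0.00269) and 6.30 ± 0.88 (adjusted p = 0.00085) in spermatocytes and adjusted p of 0.784 and 0.762 in spermatogonia. With replicates 1 and 4 averaged, none of these 4 copies stayed called in spermatocytes (limma, adjusted p = 0.0127 for MMERVK10C-int_dup141, 0.0183 for MMERVK10C-int_dup3173, 0.0281 for MMERVK10C-int_dup185 and 0.0124 for MMERVK10C-int_dup2483).

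Some members were not higher in KO spermatogonia. The leading internal copies of WT spermatogonia, MMERVK10C-int_dup2284 (chr11:98070178-98071996, + strand, intergenic) and its neighbour MMERVK10C-int_dup2283, lie beside RLTR27. MMERVK10C-int_dup2284 was at 143, 145 and 153 TPM in KO spermatogonia and 166, 107 and 152 TPM in WT, with a log2 difference of 0.08 ± 0.19 (limma, adjusted p = 0.948), or 0.60 when TPM was rescaled by the share of TE in all counts (adjusted p = 0.684). In spermatocytes it was at 52.2, 112, 88.4 and 63.4 TPM in KO and at 9.63, 11.1, 28.8 and 9.90 TPM in WT, and was called higher (2.51 ± 0.48, adjusted p = 0.00428, or 0.0193 with replicates 1 and 4 averaged). That locus held 12.24% to 20.49% of member reads in WT spermatogonia and 3.03% to 4.19% in KO.

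A few RLTR10C copies were called lower in KO spermatocytes, each with few reads. RLTR10C_dup568 (chr5:106371381-106371801, + strand, intergenic), a lone LTR, had 29, 46, 60 and 19 reads in WT and 3, 0, 2 and 1 in KO (log2 difference -5.49 ± 0.86, limma adjusted p = 0.00146, or 0.0101 with replicates 1 and 4 averaged). RLTR10C_dup505 (chr5:11293340-11293770, - strand, intergenic), in a full provirus, had 14, 15, 16 and 12 reads in WT and 0 in all 4 KO libraries (limma, adjusted p = 0.000539). These copies had at most 19 reads in any spermatogonia library.

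**Figure D5:**
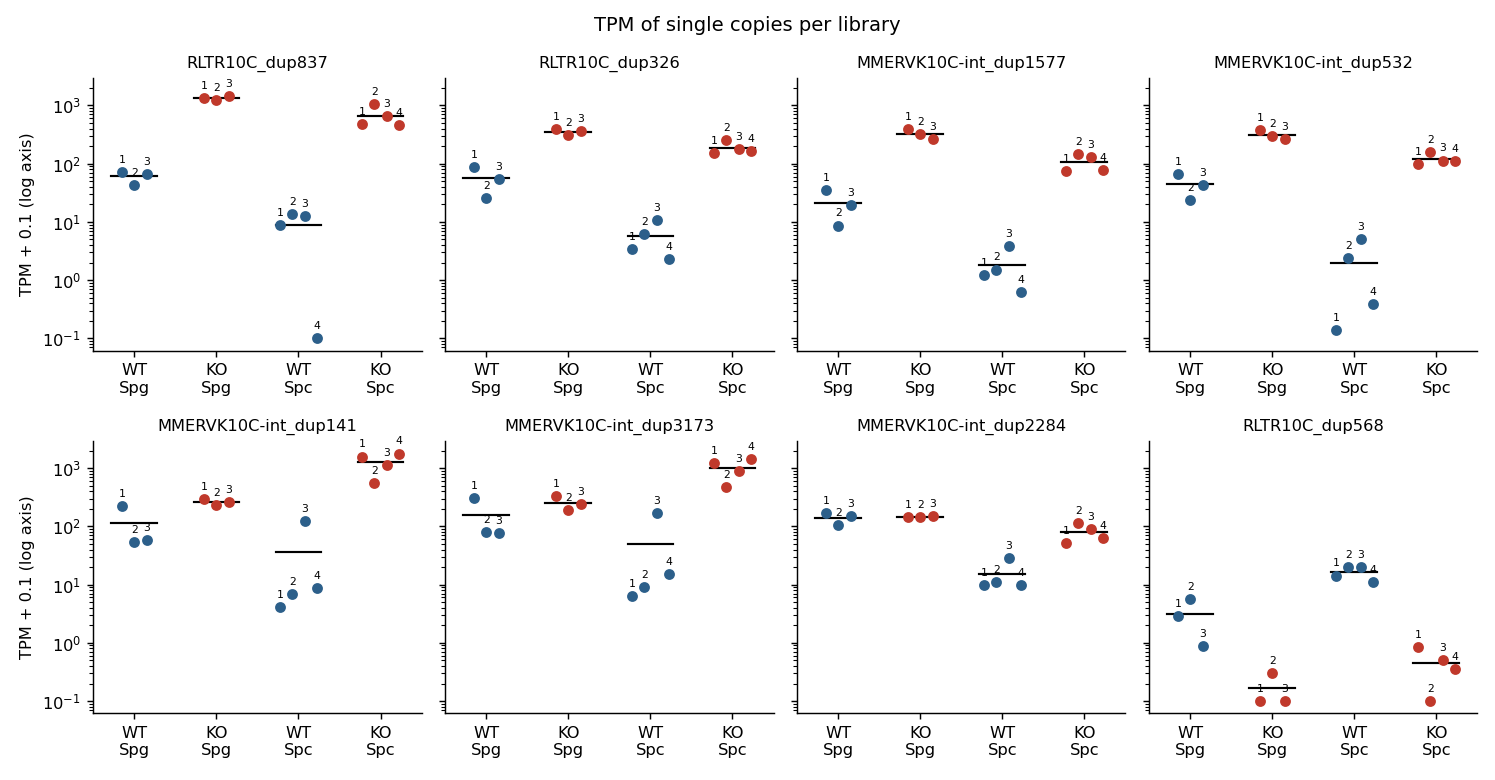
Level of 8 copies in each library as TPM + 0.1 on a shared log axis, with points numbered by replicate and bars at the group mean. The 4 copies in the top row, from proviruses with RLTR10C, are highest in KO spermatogonia, MMERVK10C-int_dup141 and MMERVK10C-int_dup3173 are highest in KO spermatocytes, MMERVK10C-int_dup2284 is level between genotypes in spermatogonia, and RLTR10C_dup568 is higher in WT.

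Reads were concentrated in few copies, most of all for the LTR. In KO spermatogonia 2 RLTR10C copies held 50% of RLTR10C reads and 15 MMERVK10C-int copies held 50% of theirs. In KO spermatocytes it took 3 and 24 copies, in WT spermatogonia 11 and 22, and in WT spermatocytes 18 and 28. Of the 166 full proviruses, 153 had reads in every KO spermatogonia library, 91 in every WT spermatogonia library, 141 in every KO spermatocyte library and 32 in every WT one. In KO spermatogonia 5 proviruses held 50% of all provirus reads, and the first alone 21.1%.

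Within full proviruses the last LTR, where the virus is known to polyadenylate, took 44.3% to 44.9% of LTR reads in KO spermatogonia, 48.8% to 50.7% in KO spermatocytes and 64.3% to 84.5% in WT libraries. The inner LTR RLTR10C_dup837 took 41.7% to 48.9% of provirus LTR reads in the KO libraries. Without it, the last LTR of each provirus took 82.8% to 89.3% of the rest in the KO libraries and 80.6% to 88.6% in WT, and the first LTR the remainder. Without that copy the shares of KO and WT overlapped, and the choice to leave out that copy was made after its values were seen.

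GENCODE places the start of at least 1 transcript of 16 genes in an RLTR10C copy on the same strand. For the protein-coding genes Myrip and Hspa12a it was 1 transcript each. The tests used counts of whole genes, so transcripts that start in the LTR were not measured apart. Of these 16 genes, 3 were expressed enough to test in spermatogonia and 4 in spermatocytes. In spermatogonia 0 were called by edgeR, with 1 at an unadjusted p under 0.05, the lincRNA 2310047D07Rik (log2 fold change 1.78 ± 0.40, adjusted p = 0.143), whose LTR is shown above. In spermatocytes Myrip, which encodes a protein linking myosin to secretory organelles, was called higher (2.32 ± 0.60, adjusted p = 0.00592) and a lincRNA that starts in RLTR10C_dup1745 lower (-3.11 ± 0.78, adjusted p = 0.00493), while 2310047D07Rik was at 1.91 ± 0.57 (adjusted p = 0.012) and Hspa12a at -0.67 ± 0.61 (adjusted p = 0.338). Of all genes and subfamilies, 0.0741% were called in either direction in spermatogonia and 57.4% in spermatocytes.

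Of 12 genes for methylation, retroviral silencing or candidate regulation that were listed with the family, 0 were called by edgeR in KO spermatogonia, where all unadjusted p were above 0.05. In KO spermatocytes 3 rose and 3 fell, a share near the 57.4% of all features. The de novo methyltransferase genes Dnmt3a (log2 fold change 2.84 ± 0.56, edgeR adjusted p = 0.00127) and Dnmt3b (1.97 ± 0.54, adjusted p = 0.00789) and the transcription factor gene Creb1 (0.80 ± 0.21, adjusted p = 0.00692) rose. Dnmt3l, a cofactor of de novo methylation (-2.45 ± 0.57, edgeR adjusted p = 0.00333), Trim28, the KRAB corepressor that silences ERVK elements (-1.49 ± 0.21, adjusted p = 0.000178), and Uhrf1, which recruits the maintenance methyltransferase (-0.78 ± 0.22, adjusted p = 0.00961), fell. Spermatogonia markers (421.6 to 1102 CPM in KO and 30.16 to 263 in WT spermatocytes) moved with genotype beside these genes, and their part was not tested.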

How the data were processed

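Polyadenylated RNA of sorted germ cells was sequenced with strand information. Per the labels and the study's methods, the authors aligned reads with STAR 2.7.3a to GRCm38 with GENCODE M25 and deposited counts per gene and TE subfamily (TEtranscripts) and TPM per TE copy (TElocal), both of which share out multiply mapping reads, so values of near-identical copies are uncertain. The TPM values deposited were scaled over TE copies alone, to 1000000 per library, which makes a copy's TPM fall when other TE rise. Columns of the authors' own fold changes and p-values were not used. The members and gene lists were chosen with earlier results of these data known.

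Counts were tested with edgeR 4.0.16 (quasi-likelihood test, TMM, R 4.3.3) within each stage, and over all 14 libraries for differences between stages, with Benjamini-Hochberg adjustment over genes and subfamilies and a threshold of 0.01. CPM levels shown use the TMM factors of all 14 libraries. Copies were tested with limma 3.58.1 on log2(TPM + 0.1) at a mean of at least 0.5 TPM, adjusted over all TE copies, so a fold change understates the change of low copies. Whole reads per copy were recovered from TPM (100% whole within 0.01). Shares were compared with a two-sided exact permutation test. DESeq2 1.42.0 and other settings were tried as alternatives, and the tests were checked on simulated data.

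Named copies were the 5 MMERVK10C-int and 5 RLTR10C copies with the most reads in KO and the 3 and 3 in WT of each stage, 20 in all, and copies called in spermatogonia or lower in spermatocytes were counted. Positions, loci and gene context came from GENCODE M21 on GRCm38. Whole sequences of the named copies were not used here, and RefSeq promoter windows inside members, 1 of them in a named copy, are shown in their place. Same-numbered KO and WT spermatogonia deviated together from their group means (r = 0.676, 0.179 and 0.249), so the replicate number was taken as a pairing there, although KO 2 and WT 3 also did (r = 0.316), more than 2 of the same-numbered pairs. The study's captions give 3 biological replicates for both stages, against the 4 spermatocyte libraries per genotype analysed here. The labels do not say which libraries came from separate animals, so p-values measure only the spread between these samples. Spermatogonia library 4 of the deposited columns is the sample titled replicate 3.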

Additional observations from a re-analysis of the deposited data

Results flagged for a closer look

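In 54 checks of groups of 4 libraries, 11 held a library whose gap to its nearest neighbour exceeded Dixon's critical share of the group's range, where chance gives about 1 in 20 for a single check. The checks were not independent, since sums and copies within those sums were checked on the same libraries. Their number can therefore not be set against chance. All 11 were WT spermatocyte replicate 3. MMERVK10C-int stood at 430.7 CPM there, with 75.74 CPM in copies beside RLTR10C, 302.8 CPM beside RLTR10B and 42.81 CPM beside other LTRs. Single copies that stood apart were MMERVK10C-int_dup141 at 125 TPM, MMERVK10C-int_dup185 at 169 TPM, MMERVK10C-int_dup2284 at 28.8 TPM, MMERVK10C-int_dup2483 at 20.1 TPM and MMERVK10C-int_dup3173 at 169 TPM. RLTR10C_dup431 stood apart with 1 read (0.276 TPM) against 0 in the other 3 libraries, and RLTR10C_dup505 was lower there, at 5.1 TPM.

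That library also held the most spermatogonia (263 CPM), Sertoli (416.1 CPM) and spermatid (1396 CPM) marker RNA of the WT spermatocytes, and their part in its MMERVK10C-int level was not tested. Without it the ratio of KO to WT spermatocytes went from 28.8 to 107 for copies beside RLTR10B and from 22.9 to 31.7 for those beside RLTR10C.

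The genotype effect differed between stages by test for 3 related subfamilies, RLTR10B2 (log2 difference, spermatocytes minus spermatogonia, 3.28, edgeR adjusted p = 0.00837), RLTR10B (2.56, adjusted p = 0.00594) and RLTR10-int (1.56, adjusted p = 0.00439). Among the 12 genes listed with the family it differed for Dnmt3a (2.75, edgeR adjusted p = 0.00667) and Trim28 (-1.39, adjusted p = 0.000854). The share of all genes called for this difference is not given here, so these calls cannot be set against it.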

How the results depend on the processing

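The log2 fold change of MMERVK10C-int in spermatogonia, just short of the threshold at 2.30 (edgeR, adjusted p = 0.0101), passed it with no filter (2.31), the DESeq2 Wald test (2.30), TMM on genes alone (2.31), the replicate block (2.27), library totals (2.33), DESeq2 size factors (2.30) and 5 of 6 TMM reference libraries (2.27 to 2.32). Its difference between stages passed with the block (2.58) and without spermatocyte KO 2 and WT 3 (3.32), and ran from 1.89 to 3.14 without 1 library.

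Within WT, MMERVK10C-int passed with no filter (-1.76), DESeq2 (-1.66) and its size factors (-1.66), TMM on genes alone (-1.73), library totals (-2.25), without spermatocyte KO 2 and WT 3 (-2.61), and down to -1.86 over TMM references. RLTR10C passed with no filter (-1.13), DESeq2 (-1.02), TMM on genes alone (-1.11), library totals (-1.71), without those 2 libraries (-1.37), and down to -1.24 over TMM references. Without 1 library they ran from -2.61 to -1.36 and from -1.37 to -0.80. Leaving out any KO library moved the reference to WT spermatocyte replicate 3, which is where these WT values shifted although no WT library had left. RLTR10C in spermatogonia ran from 2.80 to 3.21 without 1 library. With library totals the median gene was at 0.79 in spermatocytes, 0.90 for the difference between stages and -0.76 within WT, against 0.11, 0.20 and 0.02 with TMM factors.

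MMERVK10C-int and RLTR10C copies called higher in spermatogonia (14 and 2, with 0.00872% of all TE copies) became 48 and 8 at a pseudocount of 1 (0.0638%), 71 and 9 at a mean of 0.1 TPM (0.055%), 2 and 1 at 2 TPM (0.00514%), 175 and 27 from recovered reads (1.42%), 1 and 1 with the block (0.000792%), and 0 to 8 and 0 to 3 without 1 library (0% to 0.0056%). In spermatocytes (288 and 34, with 7.17%) they became 156 and 18 with the block (1.95%), 102 and 14 with replicates 1 and 4 averaged (2.50%) and 176 to 306 and 21 to 38 without 1 library (3.90% to 10.0%), and RLTR10C 52 from recovered reads (7.98%). Same-numbered spermatocyte libraries were not paired by their deviations (r = 0.056, 0.188, -0.032 and 0.105). The provirus share of spermatocytes turned sign without spermatocyte KO 2 and WT 3 (-9.91), with internal parts of at least 3000 bp (-1.16) and without single libraries (-5.92 to 4.43). The causes of the other shifts were not tested. Of all values of the main comparisons under alternatives, 222 kept their direction and side of the threshold or stayed within the limit set for a change, 40 came to pass the threshold, 2 lost it, 30 moved beyond that limit and 4 changed sign. With the block the copies called lower in spermatocytes went from 7 and 3 to 2 and 1 (0 and 1 with replicates 1 and 4 averaged), while those of all TE copies went from 4.06% to 2.02% (2.10%), and the 4 other subfamily calls it was run on did not change.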

Other observations

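MMERVK10C-int copies are also described by length and by position relative to genes. Copies of at least 5000 bp had a ratio of KO to WT means of 13.7 in spermatogonia and 46.8 in spermatocytes, and shorter copies 2.79 and 20.6. Intronic copies had ratios of 7.47 and 16, intergenic copies 4.77 and 24.1, and copies overlapping an exon 3.53 and 26.8. RLTR10C copies in full proviruses had ratios of 12.3 and 26.7, while RLTR10C copies alone, the largest class of loci, had 2.13 and 2.25. The spermatocyte ratios of MMERVK10C-int depended on WT replicate 3, and without it they were 73.2 for copies of at least 5000 bp, 44.0 for shorter copies, 23.5 for intronic, 55.3 for intergenic and 46.1 for exonic copies, so that intergenic and exonic copies changed order. Those of RLTR10C were then 34.6 in full proviruses and 2.9 alone. These ratios are of summed CPM, with no test.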
